A study of Mus musculus with 8 samples.

Results

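The proteasome is the large protease that degrades proteins tagged with ubiquitin, among them misfolded proteins that are pulled back out of the endoplasmic reticulum. Its barrel-shaped core is built of alpha subunits, which form the outer rings and gate the entrance, and beta subunits, which form the inner rings and carry the cutting sites. A regulatory cap with a ring of ATPases and a lid and base of non-ATPase subunits binds ubiquitin chains and unfolds the substrate, and alternative caps, the activators, can take its place. The genes of all these parts were followed here in kidneys of mice with a mutant uromodulin gene (Umod), whose protein is retained in the endoplasmic reticulum of thick ascending limb cells.

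Members were the array elements whose gene symbol on the platform starts with Psma to Psmg followed by a digit, without the immunoproteasome genes Psmb8, Psmb9 and Psmb10, which were set apart as a companion group. The pattern took 39 of the 9030 genes named on the array, with 48 elements. Psmc3ip and Psme3ip1 encode proteins that interact with a subunit and are not proteasome proteins themselves, so they were counted apart, and 37 proteasome genes remained. These were 6 core alpha genes, 8 core beta genes, 5 ATPase genes, 11 lid and base genes, 4 activator genes and 3 genes of an inhibitor or of assembly chaperones. A gene with several elements is represented by its brightest element.

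Whole-kidney RNA of 4 male homozygous Umod A227T mice (age label 19, no unit given) and of 4 male heterozygous Umod C93F mice (age label 39, no unit given) had been hybridised to spotted cDNA arrays. The study's methods give the ages in weeks, slightly below the numbers of the labels in both lines. Both lines were generated by ENU mutagenesis and kept on the C3HeB/FeJ background. Each mouse was set against a pooled wild-type RNA of its own line on 2 arrays, the second with the dyes swapped (16 arrays). The labels give 6 animals for a pool, and the methods describe fewer wild-type littermates. The lines also differ in age, in zygosity, in the pool, in signal over background and in when they were hybridised. A difference between the lines therefore cannot be assigned to any of these. Every value below is a log2 ratio of mutant over wild-type pool on the normalized scale, with 0 for equal signal, and a gene's value in a line is the mean ± SD over 4 mice. All tests are moderated tests against 0 with limma, with Benjamini-Hochberg adjustment over all tested elements, and a gene passed at an adjusted p under 0.10. The pool counts as 1 control sample, so the variation among wild-type animals is not part of any p-value, and in whole kidney a change in the number of cells of a type and a change in RNA per cell cannot be told apart.

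The direction mutant over wild type is likely rather than settled. It rests on the processed ratios that the authors deposited and on the genes that the study's text gives as higher (Scd1) or lower (Hba-a1, Odc1, Wfdc15b), and the names of the scans, read literally, would turn every sign. In the study, RT-qPCR of other, homozygous mice also gave Scd1 higher and Wfdc15b lower in both lines. Odc1 was lower in C93F with a tendency in A227T, and Hba-a1 did not differ. Of the kidney tubule markers, 4 of the 6 on the array were bright enough for testing in each line, Umod among them. The share of spots with at least 2 times background in a channel was 56.6% to 73.7% on the A227T arrays and 15.3% to 42.3% on the C93F arrays. Accordingly 9211 elements were tested in A227T, 3336 in C93F and 2168 in both. The C93F scans labelled as mouse 1 correlated best with the authors' column of mouse 2 (r = 0.87 over tested elements) and those of mouse 2 with the column of mouse 1 (r = 0.87), which leaves the mean over the 4 mice unaffected.

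Sequence windows are shown for the genes on which the results turn and which the RefSeq promoter table holds, namely Psma1, Psma2 and Psma5, which differed between the lines, and Psmc6, which was lower in C93F. Psmb2, higher in A227T, has no entry in the table. Each window holds the 250 bases before the annotated start in build GRCm38.p6, read on the strand of the gene. They are Psma1 on the minus strand at chr7:114276117-114276366, Psma2 on the plus strand at chr13:14612992-14613241, Psma5 on the plus strand at chr3:108256676-108256925 and Psmc6 on the plus strand at chr14:45329574-45329823. Capitals mark the motifs TGACNNNGC (core of the element bound by the proteasome gene activator Nrf1, encoded by Nfe2l1, and by Nrf2), CCAAT (bound by NF-Y) and GGGCGG (bound by Sp1), searched on both strands.
Psma1: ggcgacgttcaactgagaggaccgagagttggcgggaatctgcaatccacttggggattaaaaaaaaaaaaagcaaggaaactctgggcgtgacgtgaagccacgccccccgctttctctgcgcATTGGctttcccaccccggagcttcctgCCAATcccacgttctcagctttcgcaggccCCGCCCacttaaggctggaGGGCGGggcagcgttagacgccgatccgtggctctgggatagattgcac
Psma2: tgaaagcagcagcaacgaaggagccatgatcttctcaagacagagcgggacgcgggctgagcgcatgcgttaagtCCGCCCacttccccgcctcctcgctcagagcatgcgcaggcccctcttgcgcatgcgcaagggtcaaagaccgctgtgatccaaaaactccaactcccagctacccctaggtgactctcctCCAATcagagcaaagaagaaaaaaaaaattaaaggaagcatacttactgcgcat
Psma5: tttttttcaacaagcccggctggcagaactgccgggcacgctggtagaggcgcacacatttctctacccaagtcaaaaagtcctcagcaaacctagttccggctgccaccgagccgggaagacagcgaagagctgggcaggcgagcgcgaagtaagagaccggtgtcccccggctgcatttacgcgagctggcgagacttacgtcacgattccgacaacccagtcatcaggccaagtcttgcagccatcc
Psmc6: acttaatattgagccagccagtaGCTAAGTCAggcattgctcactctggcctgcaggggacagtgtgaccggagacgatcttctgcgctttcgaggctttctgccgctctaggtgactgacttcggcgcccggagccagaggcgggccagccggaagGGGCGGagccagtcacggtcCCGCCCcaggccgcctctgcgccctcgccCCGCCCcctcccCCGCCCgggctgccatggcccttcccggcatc

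The Psma1 window held 2 CCAAT and 2 GGGCGG matches, the Psma2 window 1 of each, the Psma5 window no match to any of the 3 motifs, and the Psmc6 window 1 TGACNNNGC match and 4 GGGCGG matches. The alpha subunit genes that differed between the lines therefore shared none of the motifs throughout. No motifs overlapped in these windows. Over the 31 proteasome genes with a window, TGACNNNGC was present in 5 (16.1%), CCAAT in 11 (35.5%) and GGGCGG in 19 (61.3%). Of the 32851 windows of the table, 10.2%, 33.8% and 32.7% held the respective motif, and by gene the shares were 11.5%, 37.5% and 35.4% of 27025. A match describes letters and is not evidence that a factor binds.

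In kidneys of Umod A227T mice, 3 proteasome genes passed the test. Of the 37 genes, 28 were bright enough for testing and 9 were not. Psmb2, Psma1 and Psma5 were higher in the mutants and none was lower. The 3 genes are 10.7% of the 28, where 6.23% of all 9211 elements were called higher and 4.53% lower. None of the 28 also exceeded a 1.4-fold change, the threshold of the study's methods, against 1.8% of all elements. At an unadjusted p under 0.05 there were 6 genes (21.4%), beside 20.5% of all elements. The median over the 28 genes was 0.04 and that over all elements 0.01, and the mean was above 0 in 18 genes (64.3%), against 51.9% of elements. The counts depend on the processing, and so do those over all elements, of which 991 of 9211 passed in either direction as reported. With the authors' processed ratios 7 of 23 tested genes were higher (Psma2, Psmb1, Psmd12 and Psmd13 in addition), where 1230 of 4874 elements passed. Psmb2 then exceeded 1.4-fold at 0.498, and the median was 0.122 beside 0.048 over all elements. With median centring the same 7 genes were higher, of 28, where 1554 of 9211 elements passed. The median was then 0.113 beside 0.035. With a version of SAM, the test named in the study's methods, 5 were higher, where 1254 of 9211 elements passed. This version, used wherever SAM is named below, set its false discovery rate by sign flips of the mice. The study describes permutations, so it is not the study's own run.

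**Figure D1:**
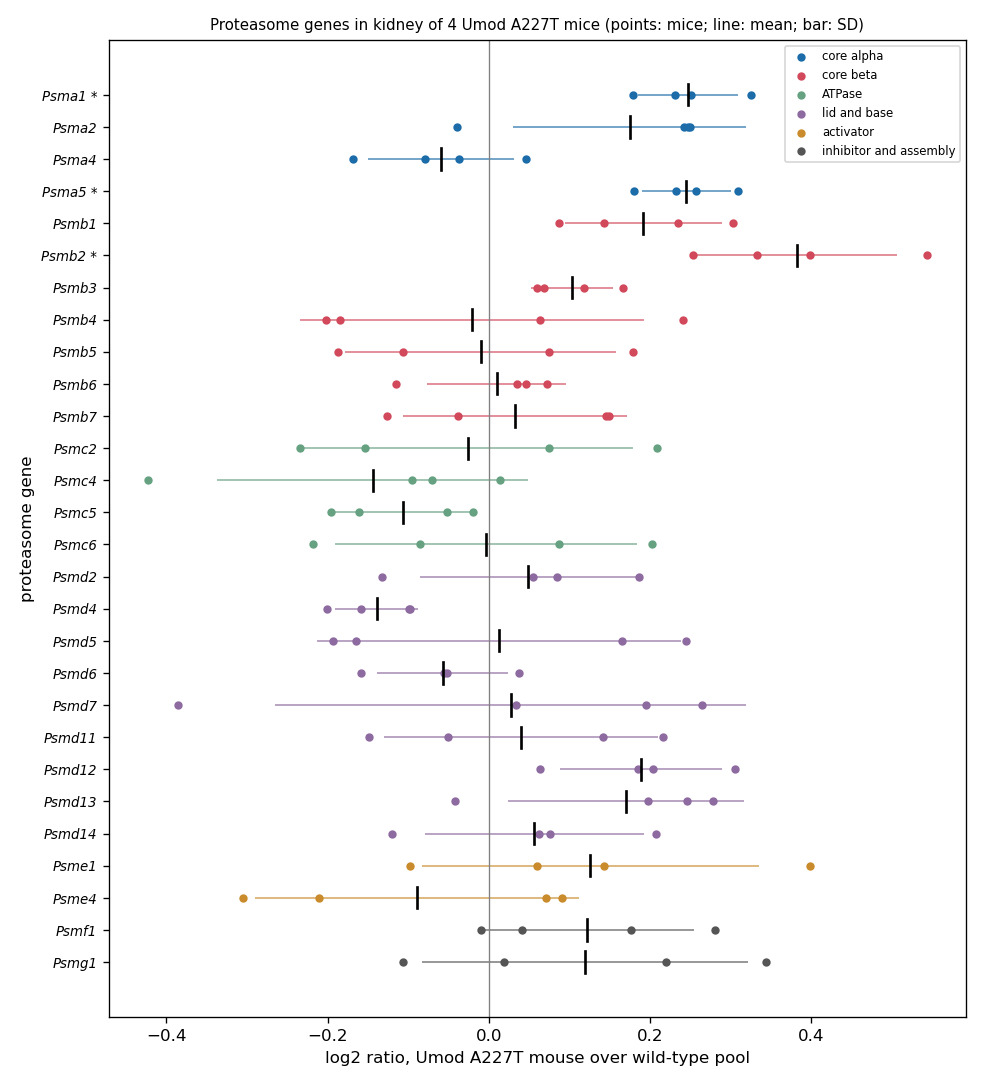
Log2 ratio of each Umod A227T mouse over the wild-type pool (horizontal axis) for the 28 tested proteasome genes, coloured by subunit group. Points are the 4 mice, black lines the means, bars the SD, and an asterisk marks an adjusted p under 0.10; all 4 mice of Psmb2, Psma1 and Psma5 lie above 0.

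Psmb2 (Gene ID 26445), a structural beta subunit of the core without a cutting site, had the highest value of the tested members. Its ratios were 0.54, 0.40, 0.33 and 0.25 in mice 1 to 4, all above 0, with a mean of 0.38 ± 0.12 (SD, n = 4), a 1.30-fold difference (SE 0.08, 95% interval 0.21 to 0.55, adjusted p = 0.0102, limma). The mean was 0.50 over the 4 arrays with the mutant in red and 0.26 over the 4 with the mutant in green. Single arrays spread from 0 to 0.71, so that the mice are closer to each other than the arrays are. Psmb2 passed under all 19 alternative settings. The interval of Psmb2 reached beyond a 1.4-fold change, and those of the other 27 genes lay within it.

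Among the alpha subunits, Psma1 (Gene ID 26440) had ratios of 0.25, 0.33, 0.23 and 0.18 in mice 1 to 4, with a mean of 0.25 ± 0.06 (adjusted p = 0.0644). Psma5 (Gene ID 26442) had 0.31, 0.18, 0.26 and 0.23, with a mean of 0.24 ± 0.05 (adjusted p = 0.0654). The mean of each was 1.19-fold above the pool, and every mouse lay above 0. By dye, Psma1 had a mean of 0.16 with the mutant in red and 0.33 in green, with 1 array, that of mouse 4 in red, at −0.01. Psma5 had 0.20 in red and 0.29 in green, with all arrays above 0. With 3 mice, whichever mouse was left out, neither passed, at an adjusted p of 0.117 to 0.193 for Psma1 and 0.105 to 0.241 for Psma5. Psma2 had −0.04, 0.25, 0.25 and 0.24, with mouse 1 standing apart from the other mice, and a mean of 0.17 ± 0.14 that did not pass (adjusted p = 0.24). Psma4 was the lowest of the group, with −0.08, −0.04, 0.05 and −0.17 (adjusted p = 0.71). In this group 2 of 4 tested genes were higher and none lower.

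Among the beta subunits, 1 of 7 tested genes was higher and none lower, and the values ran from −0.02 in Psmb4 to 0.38 in Psmb2. Psmb4, a structural subunit, had 0.24, −0.18, 0.06 and −0.20 in mice 1 to 4, on both sides of 0 (adjusted p = 0.927). The genes of the 3 constitutive cutting sites lay close to 0: Psmb5 (chymotrypsin-like) had a mean of −0.01, Psmb6 (caspase-like) 0.01 and Psmb7 (trypsin-like) 0.03. The mice of each of these genes fell on both sides of 0. Psmb1 and Psmb3, both structural, had all 4 mice above 0, with means of 0.19 (adjusted p = 0.165) and 0.10 (adjusted p = 0.47). The second element of Psmb4 gave −0.02 and that of Psmb6 −0.10.

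None of the 4 tested ATPase genes passed, and their means ran from −0.14 to −0.004. Psmc4 was the lowest of all 28 genes, with −0.10, −0.42, 0.01 and −0.07 in mice 1 to 4, and mouse 2 set its mean of −0.14 ± 0.19 (adjusted p = 0.38). Psmc6 was the highest of the group, with −0.09, −0.22, 0.20 and 0.09 (adjusted p = 0.987). Psmc5 had all 4 mice below 0, at −0.16, −0.20, −0.02 and −0.05, and did not pass (adjusted p = 0.465). Its arrays gave 0.20 with the mutant in red and −0.41 with the mutant in green, a wider gap than its distance from 0. A second tested element of Psmc5 had a mean of −0.08.

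In the lid and base none of 9 tested genes passed. Psmd12, a scaffold subunit of the lid, was the highest, with 0.06, 0.20, 0.19 and 0.30 in mice 1 to 4 and a mean of 0.19 ± 0.10 (adjusted p = 0.171). Psmd4, a receptor for ubiquitin chains, was the lowest, with −0.10, −0.16, −0.20 and −0.10 and a mean of −0.14 ± 0.05 (adjusted p = 0.306). All mice of Psmd12 lay above 0 and all mice of Psmd4 below it. By dye, however, Psmd12 had 0.48 with the mutant in red and −0.10 in green, and Psmd4 −0.05 and −0.23. Psmd14, the subunit that removes ubiquitin from the substrate, had a mean of 0.06, and Psmd2, a large base subunit, 0.05. Psmd5, a chaperone of base assembly, had a mean of 0.01 ± 0.22. The brightest element of the lid gene Psmd11 gave 0.04 and the other one 0.15.

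Of the activators, Psme1, a subunit of the interferon-inducible cap, had 0.40, 0.14, −0.10 and 0.06 in mice 1 to 4, and Psme4, a large single-chain activator, −0.21, 0.09, −0.30 and 0.07. The mice of both genes fell on both sides of 0 (adjusted p = 0.461 and 0.614). Psmf1, an inhibitor of the core, had 0.18, −0.01, 0.04 and 0.28, and the core assembly chaperone Psmg1 −0.11, 0.22, 0.02 and 0.34. Neither passed (adjusted p = 0.424 and 0.484). The genes not bright enough for testing in this line were Psma6, Psma7, Psmb11, Psmc3, Psmd9, Psmd10, Psme2, Psme3 and Psmg2. Among them Psmb11 encodes the thymus-specific beta subunit. The means of these 9 genes, given without a test, ran from −0.14 in Psmb11 to 0.21 in Psma7, with wide spreads such as 0.29 for Psma7. Of the genes counted apart, Psme3ip1 had a mean of −0.18 with all 4 mice below 0 (adjusted p = 0.229), and Psmc3ip was too dim.

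Across the 28 genes, 6 had all 4 mice above 0 (21.4%) and 2 had all 4 below (7.14%), beside 15.4% and 12.6% of all elements. The medians over the 28 genes were 0.05, 0.08, 0.11 and 0.06 in mice 1 to 4, and those over all elements −0.002, 0.015, 0.015 and 0.008. The median SD between mice was 0.136 for the proteasome genes and 0.15 for all elements. Without mouse 3 the median over the 28 genes was −0.002.

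**Figure D2:**
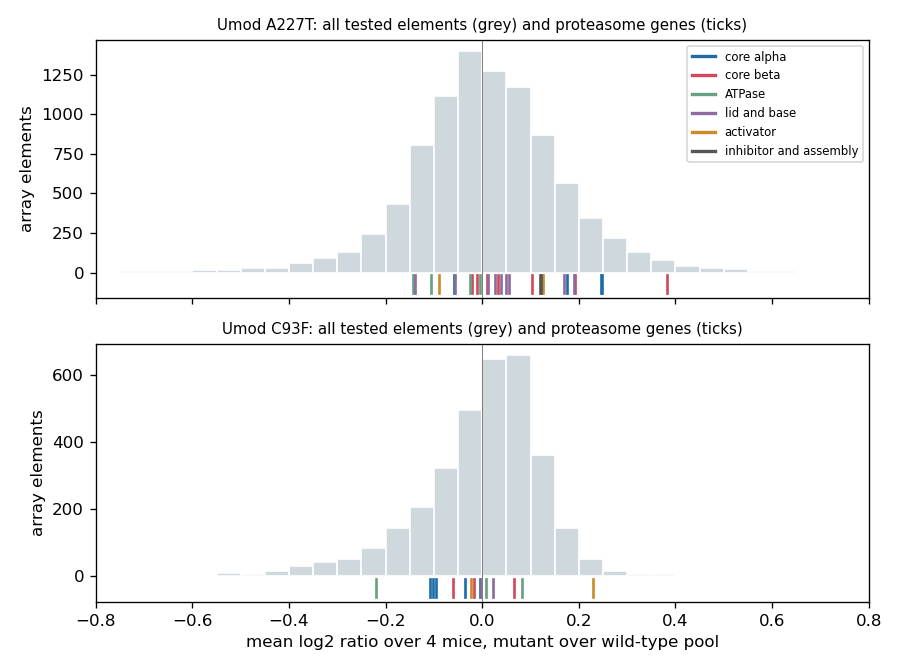
Histograms of the mean log2 ratio over 4 mice (horizontal axis) of all tested array elements (number on the vertical axis), 9211 in Umod A227T above and 3336 in Umod C93F below. Coloured ticks under each histogram are the tested proteasome genes, 28 and 15, which run from −0.14 to 0.38 and from −0.22 to 0.23. The quartiles of all tested elements are −0.08 and 0.10 in A227T and −0.06 and 0.08 in C93F. Elements beyond the axis limits are not drawn.

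In kidneys of Umod C93F mice, 15 of the 37 genes were bright enough for testing. Psmc6 was lower in the mutants and none was higher. This is 6.67% of the genes, where 14.7% of all 3336 elements were called lower and 9.17% higher. No gene exceeded a 1.4-fold change with an adjusted p under 0.10, against 1.05% of elements, and the 95% intervals of all 15 genes lay within that fold. At an unadjusted p under 0.05 there were 3 genes (20%), beside 31.7% of elements. The median over the 15 genes was −0.02 and that over all elements 0.02, and 5 genes (33.3%) had a mean above 0, against 56.8% of elements.

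**Figure D3:**
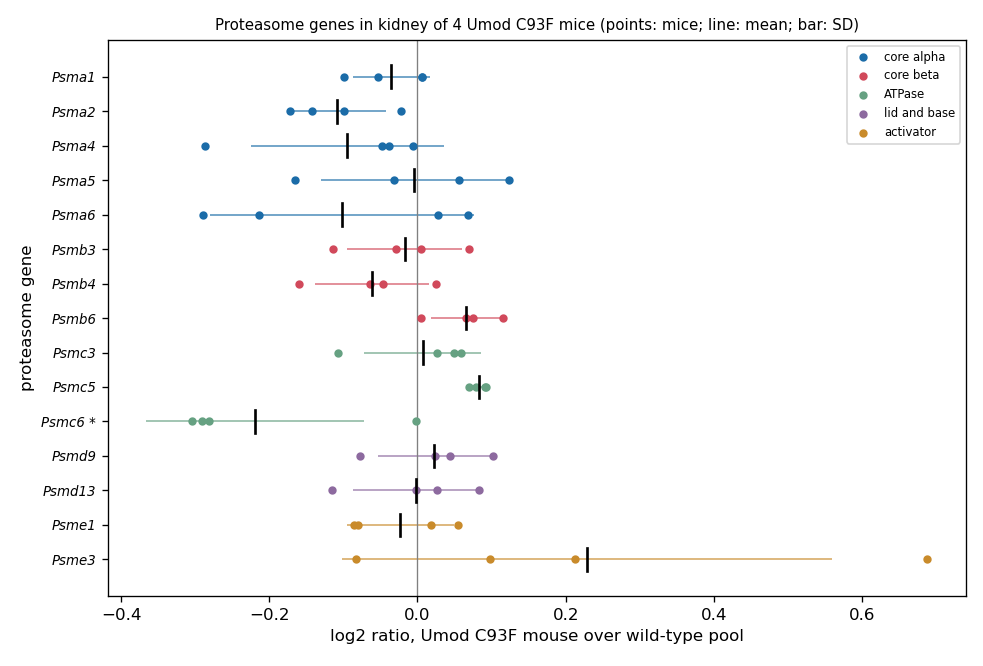
Log2 ratio of each Umod C93F mouse over the wild-type pool (horizontal axis) for the 15 tested proteasome genes, coloured by subunit group. Points are the 4 mice, black lines the means, bars the SD, and the asterisk marks the adjusted p under 0.10 of Psmc6, of which 3 mice lie between −0.30 and −0.28 and mouse 3 at −0.002.

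Psmc6 (Gene ID 67089), an ATPase of the ring that unfolds substrates, had ratios of −0.28, −0.30, −0.002 and −0.29 in mice 1 to 4. The mean fell by 0.22 on the log2 scale (SD 0.15, n = 4, SE 0.06, 95% interval −0.35 to −0.09, adjusted p = 0.0283, limma), a 1.16-fold difference. Mouse 3 did not share the difference seen in the other mice. The mean was −0.24 with the mutant in red and −0.19 with the mutant in green. Without mouse 2 or without mouse 4 the gene did not pass (adjusted p = 0.113 and 0.118).

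Of the other tested ATPase genes, Psmc5 had 0.08, 0.09, 0.09 and 0.07 in mice 1 to 4, the narrowest spread of the tested members (SD 0.01), and a mean of 0.08 that did not pass (adjusted p = 0.177). As in A227T, its arrays differed by dye, with 0.39 in red and −0.22 in green. SAM called Psmc5 higher at a false discovery rate of 0.0289, and also called Psma2 lower (0.0581) beside Psmc6. It called 1138 of 3336 elements in this line, where limma called 795. Psmc3 had a mean of 0.01 ± 0.08, with mouse 3 below 0 and the others above. Psmc2 and Psmc4 were too dim for testing and had means of −0.05 and 0.05.

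All 5 tested alpha subunit genes had a mean below 0, and none passed with limma. Psma2 was the lowest, with −0.17, −0.10, −0.14 and −0.02 in mice 1 to 4, a mean of −0.11 ± 0.07 and all mice below 0 (adjusted p = 0.119 with limma, false discovery rate 0.0581 with SAM). By dye, its mean was −0.23 with the mutant in red and 0.02 in green, so the decrease was seen in 1 orientation only. Psma5 was the highest, with 0.06, −0.16, 0.12 and −0.03 (adjusted p = 0.967). Psma1 lay near 0, at 0.01, −0.10, −0.05 and 0.01 (adjusted p = 0.584), and Psma4 had −0.29 in mouse 3 and values from −0.05 to −0.01 in the other mice (adjusted p = 0.254). Psma6 had a mean of −0.10 ± 0.18 (adjusted p = 0.294). The means in red and in green were −0.13 and 0.06 for Psma1, and 0.03 and −0.04 for Psma5.

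Of the 3 tested beta subunit genes, Psmb6, the caspase-like site, was the highest with 0.08, 0.005, 0.07 and 0.12, all above 0 (adjusted p = 0.3). Its arrays differed by dye, with 0.40 with the mutant in red and −0.27 in green. Psmb4 was the lowest with −0.06, 0.02, −0.05 and −0.16 (adjusted p = 0.366), and Psmb3 had a mean of −0.02. In the lid and base, Psmd9, an assembly chaperone, had 0.04, −0.08, 0.02 and 0.10, and Psmd13, a lid subunit, −0.002, 0.03, −0.12 and 0.08. The means were 0.02 and −0.002 (adjusted p = 0.747 and 0.979).

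The widest spread in this line was that of Psme3, an activator of the nuclear proteasome, with 0.69, 0.21, −0.08 and 0.10 in mice 1 to 4. Its mean of 0.23 ± 0.33 was the highest of the 15 genes, was set mainly by mouse 1 and did not pass (adjusted p = 0.152). Without mouse 3 it passed (mean 0.33, adjusted p = 0.0683). Psme1 had 0.05, 0.02, −0.09 and −0.08 (adjusted p = 0.739). Psmb2, the leading gene of A227T, was not bright enough for testing in C93F, with the pool channel at or above 2 times background on 4 of 8 arrays. Its ratios there were −0.16, −0.03, −0.13 and −0.01. The means of the 22 genes too dim in C93F ran from −0.12 in Psmd12 to 0.07 in Psmb11, given without a test. Psma7, Psmb11, Psmd10, Psme2 and Psmg2 were too dim in both lines.

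Of the 15 genes, 2 had all 4 mice above 0 (13.3%) and 3 all 4 below (20%), beside 20.2% and 19.4% of all elements. The medians over the 15 genes were 0.01, 0.02, −0.08 and 0.01 in mice 1 to 4, with mouse 3 the lowest. The median SD was 0.08 for the proteasome genes and 0.09 for all elements.

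The lines could be compared directly for the 11 proteasome genes tested in both, with limma over all 8 mice and adjustment over 2168 shared elements. Psma1, Psma2 and Psma5, all alpha subunits, were lower in C93F than in A227T, and none was higher. This is 27.3% of the 11 genes, where 16.2% of shared elements were lower in C93F and 12.2% higher. The difference was below 0 in 9 of 11 genes (81.8%), against 54% of elements, with a median of −0.15 beside −0.02 over all shared elements. The line means of the 11 genes had a Pearson correlation of −0.01 (across genes, which are not independent replicates). In C93F these alpha genes lay near background. The mutant channel of Psma1 was 4.87 to 11.13 times background in A227T and 1.88 to 2.61 times in C93F. Psma2 had 4.14 to 10.93 and 2.04 to 2.75 times, and Psma5 1.41 to 8.64 and 1.79 to 2.97 times. The part of this signal level in the differences was not tested.

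Psma1 differed by −0.28 (C93F minus A227T, SE 0.08, 95% interval −0.45 to −0.11, adjusted p = 0.0187), Psma2 by −0.28 (SE 0.09, −0.47 to −0.09, adjusted p = 0.0327) and Psma5 by −0.25 (SE 0.09, −0.43 to −0.07, adjusted p = 0.048). For Psma1 and Psma5 the 4 A227T mice all lay above the 4 C93F mice. For Psma2, mouse 1 of A227T (−0.04) lay within the C93F range of −0.17 to −0.02. By dye, the C93F means of Psma1, Psma2 and Psma5 each had opposite signs, while their A227T means were above 0 in both orientations. The fourth alpha gene, Psma4, differed by −0.04, with an interval of −0.22 to 0.15, and its mice overlapped. Psma5 no longer passed without A227T mouse 1, C93F mouse 2 or C93F mouse 4 (adjusted p = 0.101, 0.166 and 0.111), while Psma1 and Psma2 passed without any single mouse.

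**Figure D4:**
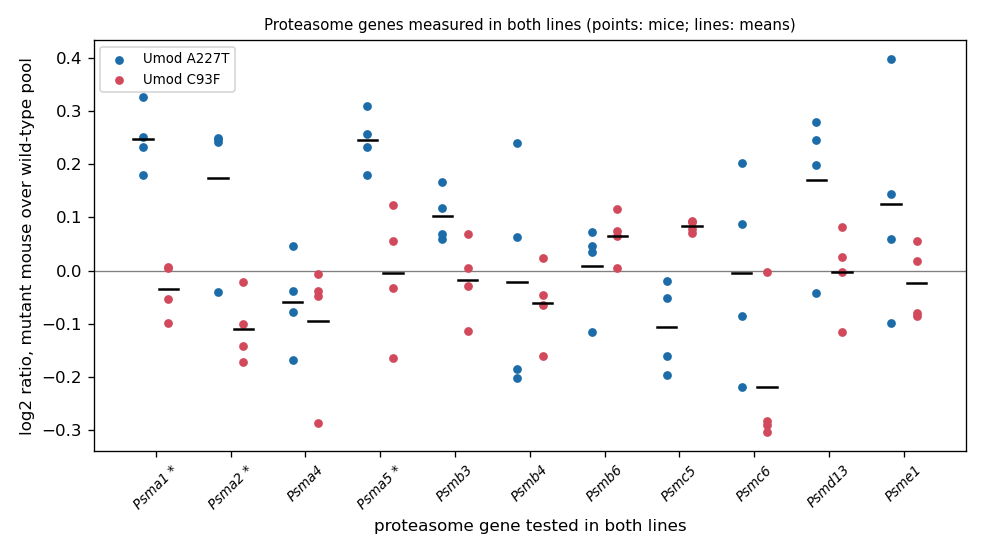
Log2 ratio over the wild-type pool of the line (vertical axis) for the 11 proteasome genes tested in both lines. Points are the 4 Umod A227T mice (blue) and the 4 Umod C93F mice (red), black lines the means, and an asterisk marks an adjusted p under 0.10 for the difference between lines, held by Psma1, Psma2 and Psma5.

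The opposite order was seen in Psmc5, with 4 mice below 0 in A227T and 4 above 0 in C93F. The difference of 0.19 (95% interval 0.02 to 0.36, adjusted p = 0.103) just missed the threshold. Psmc5 passed, higher in C93F, with no background correction, scale normalization between arrays, stricter filters on background or dye swaps, and without A227T mouse 3 or 4. Psmc6 differed by −0.22 (−0.44 to 0.004, adjusted p = 0.153), Psmd13 by −0.17 (adjusted p = 0.195) and Psme1 by −0.15 (adjusted p = 0.313). The interval of Psmb4 was −0.26 to 0.17 and that of Psmb6 −0.11 to 0.23, so for these genes differences of that size remain possible. With no filter on dim spots, so that all 37 genes entered, Psmb2 differed by −0.46 between the lines (adjusted p = 0.0214), Psmd12 by −0.31 (adjusted p = 0.106), and Psma1, Psma2 and Psma5 did not pass (adjusted p = 0.125, 0.18 and 0.226).

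The exchange of dyes bears on how firmly these small values can be read. In A227T, 8 of 28 genes had a mean above 0 with the mutant in red and also in green, 3 were below 0 in both, and 17 had opposite signs. In C93F the numbers were 2, 3 and 10 of 15. The median gap between the orientations was 0.21 and 0.19, as large as most of the line means, and the widest was that of the lid gene Psmd13, at 0.90 in A227T and 0.92 in C93F. Psmb2, Psma1 and Psma5 in A227T and Psmc6 in C93F had the same sign in both orientations. These genes were called on the mean over both orientations, so the shared sign is not separate support for them. The mean over both orientations, used for every mouse, weighs the dyes equally.

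**Figure D5:**
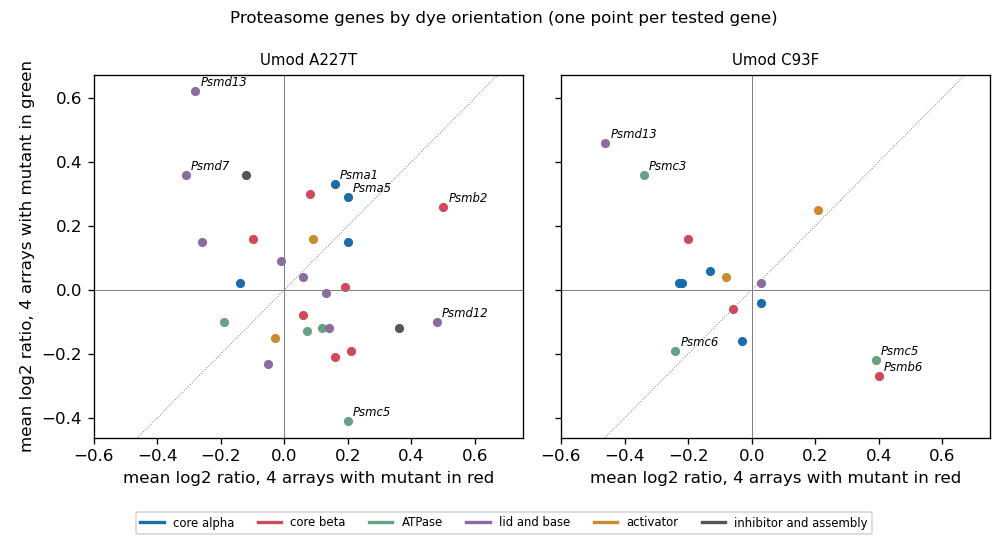
Mean log2 ratio of each tested proteasome gene over the 4 arrays with the mutant in red (horizontal axis) and over the 4 with the mutant in green (vertical axis), for Umod A227T (left) and Umod C93F (right). Points in the upper right or lower left agree in sign, as do Psmb2, Psma1 and Psma5 on the left and Psmc6 on the right; the other named genes have the widest gaps, with Psmd13 at 0.90 and 0.92.

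The immunoproteasome genes Psmb8 and Psmb9, which encode cutting subunits exchanged into the core under interferon, were tested in A227T only. Psmb8 had 0.18, 0.12, 0.10 and 0.12 in mice 1 to 4 and a mean of 0.13 ± 0.04 (adjusted p = 0.342), and Psmb9 had 0.18, 0.36, 0.33 and 0.02, with a mean of 0.22 ± 0.16 (adjusted p = 0.134). All mice lay above 0 in both genes, and neither passed. Psmb10 was too dim in both lines. Psmb8 had a mean of 0.12 and Psmb9 of 0.06 in C93F, where neither was tested.

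Of the proteasome-bound and assembly factors, 8 of 18 listed genes were on the array and 5 were tested in A227T, of which Zfand5, a proteasome-binding zinc finger protein, was higher, with 0.34, 0.28, 0.62 and 0.31 (mean 0.39 ± 0.16, adjusted p = 0.0121). Of all elements in this line, 6.23% were called higher and 4.53% lower. The assembly chaperone Pomp had a mean of −0.05, and the proteasome gene activators Nfe2l1 and Nfe2l2 were too dim in both lines. In C93F, 2 of these factors were tested and none passed. Of the ubiquitin genes and activating enzymes only Uba6 was on the array, tested in C93F with a mean of 0.02 (adjusted p = 0.773). Of the shuttle factors and the segregase Vcp, 5 of the 7 genes on the array were tested in A227T, none passed and their median was 0.025, and none was bright enough in C93F.

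Of the genes of endoplasmic reticulum-associated degradation, which delivers misfolded glycoproteins to the proteasome, 13 were tested in A227T and 4 in C93F, of 15 on the array. In A227T the ubiquitin ligase Marchf6 was higher, with 0.32, 0.42, 0.36 and −0.04 (mean 0.27, adjusted p = 0.0956), and the median of the 13 was −0.03, beside the 6.23% of all elements higher and 4.53% lower. In C93F 3 of the 4 passed, 1 higher and 2 lower, where 9.17% and 14.7% of all elements did. Herpud1, a stress-induced scaffold of the dislocation complex, was lower, with −0.18, −0.35, −0.43 and −0.35 (mean −0.33 ± 0.11, adjusted p = 0.00213). Os9, the lectin that recognises misfolded glycoproteins, was lower (−0.18 ± 0.10, adjusted p = 0.0305), and its partner Sel1l was higher (0.16 ± 0.08, adjusted p = 0.038). Sel1l and Herpud1 differed between the lines (adjusted p = 0.0293 and 0.0139), with Sel1l higher and Herpud1 lower in C93F. Among all shared elements, 12.2% were higher and 16.2% lower in C93F. With the authors' processed ratios the C93F means were 0.03 for Sel1l, −0.26 for Herpud1 and −0.29 for Os9. Sel1l has 3 elements, of which the brightest is given.

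Of the interferon and antigen presentation genes, 5 were tested in A227T and 2 in C93F, of 7 on the array. Tap1, a subunit of the peptide transporter that takes proteasome products into the endoplasmic reticulum, was lower in both lines, by 0.78 in A227T (−0.71, −0.71, −0.97 and −0.74, adjusted p = 9.34e-05) and 0.33 in C93F (−0.40, −0.25, −0.42 and −0.26, adjusted p = 0.00144). Ly6e was higher in A227T (0.59 ± 0.21, adjusted p = 0.00139), as was B2m, the light chain of class I molecules (0.29 ± 0.26, adjusted p = 0.0948), while Irf1 did not pass (0.19, adjusted p = 0.17). Tap1 and Ly6e each differed between the lines (adjusted p = 0.00201 and 0.00511). Of all elements, 6.23% were called higher and 4.53% lower in A227T, and 9.17% and 14.7% in C93F. Between the lines, 16.2% of shared elements were lower and 12.2% higher in C93F.

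Umod itself was lower in C93F, with −0.32, −0.46, −0.15 and −0.36 (mean −0.32 ± 0.13, adjusted p = 0.00356, limma). It did not pass in A227T, with −0.14, 0.07, −0.10 and −0.10 (adjusted p = 0.658). The difference between the lines was −0.25 (adjusted p = 0.0527). The size depends on the processing, as the authors' processed ratios gave Umod means of −0.13 in C93F and 0.01 in A227T. Scd1 was higher in both lines, by 1.09 ± 0.25 and 0.92 ± 0.14, far beyond any proteasome gene. Markers of cell types were followed as well. Of all elements 6.23% were higher and 4.53% lower in A227T, and 9.17% and 14.7% in C93F. In A227T, 4 of 5 tested fibroblast and matrix markers (medians over the list 0.58 to 0.84 per mouse), all 3 tested adipocyte markers (0.50 to 0.74) and 1 of 4 leukocyte markers were higher, and 1 of 3 endothelial and 1 of 2 erythroid markers were lower, while the adipocyte marker Adipoq was too dim and the single glomerular marker tested did not pass. In the kidney tubule list 1 of 4 was higher in A227T and 3 of 4 were lower in C93F, where per-mouse medians ran from −0.32 to −0.19. In C93F the 1 endothelial marker tested was lower, neither the 3 leukocyte markers tested nor the 1 erythroid marker tested passed, and no fibroblast, adipocyte or glomerular marker was tested. The C93F means of the untested fibroblast and matrix markers ran from 0.09 (Vim) to 0.33 (Col3a1). Those of the adipocyte markers ran from −0.01 (Ucp1) to 0.07 (Fabp4). The part of all these markers in the values of the proteasome genes was not tested.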

How the data were processed

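Kidneys of 4 A227T and 4 C93F mutants were measured against wild-type pools on 16 two-colour cDNA arrays. The deposited scans give foreground and background intensity per spot as the authors' scanner software measured it, and the authors also deposited processed log2 ratios per mouse, whose scale was found to be log2 and whose centring and direction are not stated (column medians 0.007 to 0.047). Whole-kidney RNA extraction, array printing and scanning were done by the authors, who filtered on background and dye consistency and called genes with SAM.

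Intensities were processed with R 4.3.3 and limma 3.58.1: normexp with an offset of 50, loess within arrays (spots marked as not found without weight), signs turned to mutant over pool, spots of a clone averaged, then both arrays of a mouse. Scans were aligned by block, column and row, spots were averaged by the clone names of each line's own scans, and the lines were joined by clone name. Another clone name in C93F is carried by 217 of 20794 positions, none of a proteasome gene. An element was tested if a channel reached 2 times background on both arrays of at least 3 mice. Calls used lmFit and eBayes with an adjusted p under 0.10, and additionally a fold over 1.4. Steps were tested on simulated data. The number of arrays limits the precision. Gene names come from the platform annotation (12771 positions), 0 array columns were left unassigned, and promoters come from RefSeq.

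Members and companion lists were chosen with earlier results of these data known. Values of single mice are given for members that passed or differed between lines and for the highest and lowest tested member of each group in each line; Psmb1, Psmb2 in C93F, Psmb3, Psmb5, Psmb7, Psmc3, Psmd2, Psmd5, Psmd11, Psmd14, Psma6, Psmc5 and Psmd13 in A227T, and Psmc2 and Psmc4 in C93F were named beyond this rule after their values were seen. The companion lists were the immunoproteasome, ubiquitin and activating enzymes, proteasome-bound and assembly factors, shuttles and VCP, endoplasmic reticulum-associated degradation and interferon and antigen presentation, beside markers of tubule, glomerulus, leukocytes, endothelium, fibroblasts, adipocytes and erythroid cells. Alternatives covered background correction, normalization, the dim filter, dye consistency, the unit of the fit, the authors' ratios, the choice of element, threshold, test, direction, pairing and each mouse left out.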

Additional observations from a re-analysis of the deposited data

Results flagged for a closer look

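Of 43 groups of 4 mice (a tested proteasome gene in a line), 3 had a mouse standing apart from the others by Dixon's criterion, and about 5% of groups are expected to do so by chance. In A227T, mouse 1 had a Psma2 ratio of −0.04 where the other mice lay between 0.24 and 0.25. In C93F, mouse 3 had a Psma4 ratio of −0.29 where the others lay between −0.05 and −0.01. In C93F, mouse 3 also had a Psmc6 ratio of −0.002 where the others lay between −0.30 and −0.28.

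The effect of 3 alpha subunit genes differed between the lines by the test of the difference (limma, adjusted over all shared elements), with C93F minus A227T at −0.28 for Psma1, −0.28 for Psma2 and −0.25 for Psma5. Mutation, age, zygosity, reference pool and signal over background change together between the lines and cannot be told apart.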

How the results depend on the processing

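In A227T, Psmb2 passed under all 19 alternatives. The number of proteasome genes that passed was 3 in the analysis as reported, 1 at an adjusted p under 0.05, with local background subtraction or with no filter on dim spots, 5 with SAM, and 7 with median centring or with the authors' processed ratios, all higher in the mutants; without any single mouse it was 1 (range 1 to 1). Of all 9211 A227T elements, 991 passed as reported, 619 with local background subtraction, 1254 with SAM and 1554 with median centring. At an adjusted p under 0.05 (limma) 624 passed, and without a mouse 554 to 699. With no filter on dim spots 585 of 20749 passed. With the authors' ratios 1230 of 4874 elements passed. The number of proteasome genes also over 1.4-fold was 0, and 1 with local background subtraction or the authors' ratios. The median of 0.04 became 0.11 with median centring and 0.12 with the authors' ratios, and −0.002 to 0.062 without a mouse. In C93F, the number that passed was 1, and 2 with no background correction, with both channels required at 2 times background or with single arrays, 3 with SAM, 0 with no dim filter and 0 to 2 without a mouse; the median was −0.02, and −0.024 to −0.002 without a mouse, and no gene exceeded 1.4-fold. Of all 3336 C93F elements, 795 passed as reported and 1138 with SAM. With no background correction 816 passed, with single arrays 851 and without a mouse 514 to 640. With both channels required 674 of 1827 passed, and with no dim filter 235 of 20742. With every sign turned, the 3 A227T genes and the 1 C93F gene would be lower and higher, respectively.

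The number of genes differing between the lines was 3, and 5 with median centring, scale normalization between arrays or the authors' ratios, 1 (Psmb2) with no dim filter, and 2 to 4 without a mouse. The replicate numbers do not pair mice of different lines (correlations of −0.06 to −0.001), and with the replicate number as a block 3 genes differed. No slide, print or scan batch was given in the scans, so a batch block was not run. The causes of these changes were not tested. Of the values of single genes, 559 under the alternatives kept their side of the threshold and, where uncalled, stayed within 1 SD, 23 took a call away, 13 added a call, 14 moved an uncalled value by more than its SD, and none turned a called sign. The signal over background and the number of mice left a median half-width of the 95% interval of 0.17 in A227T and 0.10 in C93F.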
